A study of Mus musculus with 26 samples.

Results

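The creatine metabolism genes examined here were Ckb, Ckmt1, Gamt and Gatm, taken as the rows that carry these symbols in the tables of labelled RNA and of half-lives from murine oligodendrocyte progenitor cells (OPCs) and oligodendrocytes (OLs). Of the 4 genes, 3 (Ckb, Gamt and Gatm) were found, each as 1 transcript among 10104 listed for either cell type, and all 3 had values in both cell types and in every replicate. Ckmt1 was not analysed here. The group was chosen by gene name and by the FPKM of Ckb, which is among the most abundant labelled transcripts, so the level of Ckb is given as a description with no test.

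Creatine is made in a pair of steps. Gatm encodes the mitochondrial amidinotransferase that joins arginine and glycine to guanidinoacetate, and Gamt encodes the cytosolic methyltransferase that turns guanidinoacetate into creatine with a methyl group from S-adenosylmethionine. Slc6a8 encodes the membrane transporter that takes up creatine from outside the cell. Ckb encodes the cytosolic brain-type creatine kinase, and Ckmt1 a mitochondrial creatine kinase, and these enzymes pass phosphate between ATP and creatine so that phosphocreatine can buffer and carry energy. In the brain, creatine synthesis and brain-type creatine kinase are known features of glia, oligodendrocytes among them.

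OPCs were grown from epiblast stem cells of 129S/SvEv embryos in medium with bFGF and PDGFA, and OLs were differentiated from such OPCs in medium with thyroid hormone (T3), noggin, IGF-1, cyclic AMP and NT3. All cells were labelled for 24 h with 5-ethynyluridine (5-EU), a uridine analogue that can be coupled to biotin, which was then replaced by uridine, and labelled RNA was pulled down and sequenced at 0, 1, 2, 4 and 6 h of this chase. There were 3 OPC replicates and 2 OL replicates, thus 15 and 10 libraries, and the study's question was how the codons of an mRNA relate to its stability in the 2 cell types. Values are FPKM (sequenced fragments per kilobase of a transcript, relative to all mapped fragments), which the authors also put on the scale of labelled spike-in RNA added at each time point, and the reads behind them are unknown. Since 0 h follows a long labelling, the 0 h level reflects RNA made and kept over that period. The cultures were derived in vitro from a single kind of stem cell, and the study states that some cells of the OL culture remain progenitors. The 2 OL replicates correspond to a pair of the OPC replicates, per the study's methods, but the numbers that correspond are not given, so the replicates were compared as separate samples.

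Markers were read before the creatine genes. The summed 0 h level of 8 oligodendrocyte markers was 6259 and 2894 FPKM in OL replicates 1 and 2, with all 8 listed, and 39.2 to 57.5 FPKM in OPCs, where 3 of 8 were listed. Mbp, which encodes a main myelin protein, was at 3213 and 1295 FPKM in OLs and at 1.19 to 3.99 FPKM in OPCs. Among the OPC markers, Gpr17, Pdgfra and Lhfpl3 were called higher in OLs by limma. Gpr17, a receptor of early differentiating cells, was at 323.3 and 299.5 FPKM in OLs and at 5.00 to 6.61 FPKM in OPCs, and Pdgfra, the PDGF receptor of progenitors, was at 66.9 and 43.9 FPKM in OLs and at 11.5 to 26.5 FPKM in OPCs. Astrocyte markers, of which 3 of 6 were listed in OPCs and 5 of 6 in OLs, summed to 242.4 to 290.6 FPKM in OPCs and to 221.5 and 448.3 FPKM in OLs. Neuron markers, 2 and 3 of 5, summed to 81.8 to 183.3 and to 203 and 188.5 FPKM. No marker of pluripotent cells or of microglia was listed in either table.

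The 3 transcripts lie on the minus strand of GRCm38 and differ in the codons that the study followed. The Ckb transcript (ENSMUST00000001304, chr12:111669361-111672338) has 8 exons and 381 codons, the Gamt transcript (ENSMUST00000105363, chr10:80258151-80261012) has 6 exons and 236 codons, and the Gatm transcript (ENSMUST00000028624, chr2:122594467-122611303) has 9 exons and 423 codons. Their 3′ untranslated regions are 202, 166 and 1030 bases long, against a median of 1096 bases over 10089 listed transcripts. Below, 1 coding exon of each is shown, the one with the most codons for phenylalanine (TTT, TTC) and lysine (AAA, AAG) among its first 70 codons, with these codons in capitals so that the choice between the synonymous codons can be seen. The stretches are codons 260 to 322 in exon 7 of Ckb (chr12:111669826-111670014), codons 154 to 190 in exon 5 of Gamt (chr10:80258940-80259050) and codons 97 to 161 in exon 3 of Gatm (chr2:122603583-122603777), all read on the minus strand and coding throughout.
Ckb: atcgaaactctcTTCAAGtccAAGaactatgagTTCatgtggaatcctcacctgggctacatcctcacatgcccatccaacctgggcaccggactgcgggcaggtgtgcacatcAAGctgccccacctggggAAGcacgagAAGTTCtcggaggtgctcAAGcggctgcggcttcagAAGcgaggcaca
Gamt: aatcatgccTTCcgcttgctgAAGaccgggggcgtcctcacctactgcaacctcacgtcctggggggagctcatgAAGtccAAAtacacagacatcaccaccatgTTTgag
Gatm: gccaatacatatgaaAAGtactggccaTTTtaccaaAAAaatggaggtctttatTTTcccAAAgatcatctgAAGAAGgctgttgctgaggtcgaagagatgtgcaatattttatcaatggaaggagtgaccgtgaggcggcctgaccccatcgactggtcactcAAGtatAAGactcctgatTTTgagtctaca

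In the Ckb stretch all 3 phenylalanine codons are TTC and all 7 lysine codons are AAG, whereas in the Gatm stretch all 3 phenylalanine codons are TTT. Over its whole coding sequence Ckb has 2 TTT and 15 TTC codons (TTT is 11.8% of these) and 1 AAA and 19 AAG codons (AAA is 5.00%). Only 5.52% and 3.05% of listed transcripts have lower shares of TTT and of AAA. Gamt has 3 TTT among 10 such codons (30.0%) and 3 AAA among 9 (33.3%), and Gatm has 10 TTT and 9 TTC codons (52.6%) and 7 AAA and 16 AAG codons (30.4%). The medians over listed transcripts are 44.4% for TTT and 37.5% for AAA. The share of codons that end in G or C is 78.7% in Ckb, 72.5% in Gamt and 53.4% in Gatm, with a median of 60.6%, so Ckb lies near the upper end of the distribution and Gatm below its middle.

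At the start of the chase, the transcripts of the creatine pathway differed in abundance and in how they differed between cell types. Ckb was the most abundant of 8530 transcripts in OPCs and remained among the most abundant few in OLs, at a lower level. Gatm was near the lower limit of the table in OPCs and 21.4-fold higher in OLs, and Slc6a8, the transporter, was 4.02-fold higher in OLs. Gamt was at an intermediate level in both, and its difference did not pass the test.

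Ckb was at 5730, 4023 and 4869 FPKM at 0 h in OPC replicates 1, 2 and 3 and at 1940 and 2682 FPKM in OL replicates 1 and 2. It held rank 1 in all 3 OPC replicates and ranks 4 and 3 in the OL replicates. The 2 groups did not overlap, and the mean was 4874 ± 853 FPKM (SD, n = 3) in OPCs and 2311 ± 525 FPKM (SD, n = 2) in OLs, 2.11-fold higher in OPCs. As context only, both OL replicates lay below all 3 OPC replicates for 31.4% of the 8177 transcripts in both tables. In OPCs the next transcripts by mean 0 h level were Actb, the cytoskeletal actin, at 3655 FPKM and the histone gene Hist1h4d at 3218 FPKM. In OLs, Lars2, which encodes a mitochondrial leucyl-tRNA synthetase, at 3885 FPKM and Actb at 2973 FPKM lay above Ckb, and Mbp at 2254 FPKM and Tuba1a, an alpha tubulin, at 1810 FPKM lay below it. The order of Ckb and Mbp in OLs is not resolved, since the mean of Mbp lies between the 2 replicate values of Ckb.

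Gamt, the second enzyme of synthesis, was at 53.7, 33.8 and 36.8 FPKM in the OPC replicates and at 32.9 and 26.9 FPKM in the OL replicates. Both OL values lay below the lowest OPC value, 1 of them by less than 1 FPKM, as did those of 31.4% of transcripts. The difference between cell types (OL minus OPC) was -0.44 ± 0.26 on the log2(FPKM + 1) scale (SE; 95% interval -1.04 to 0.17), with an adjusted p of 0.241 by limma. The interval takes in both a small rise and a fall close to the size of the difference of Ckb, which was -1.08 on this scale.

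Gatm, the first enzyme of synthesis, was at 7.43, 1.54 and 1.90 FPKM in the OPC replicates and at 111.8 and 43.3 FPKM in the OL replicates. Its rank moved from 6402, 8451 and 8373 of 8530 in OPCs to 611 and 1865 of 9751 in OLs. The groups did not overlap, which was true in this direction of 28.0% of transcripts. The difference was 4.16 ± 0.57 (log2 of FPKM + 1, SE), with an adjusted p of 0.00164 by limma over all transcripts, and 13.8% of transcripts were called higher in OLs. Of all changes at 0 h, 99.7% lay below that of Gatm. The fold of the means rests on few values, and was 12-fold without OL replicate 1 and 45.2-fold without OPC replicate 1. On the log2 scale the difference was lowest without OL replicate 1, at 3.49, and over all alternatives tried the adjusted p was at most 0.0291.

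The OL replicates differed in Gatm as they did in oligodendrocyte markers. OL replicate 1 was higher than OL replicate 2 both for Gatm (111.8 against 43.3 FPKM) and for the marker sum (6259 against 2894 FPKM), and the part of the share of mature cells in the Gatm level was not tested. In such bulk samples, fewer cells of a type and less RNA per cell cannot be told apart. Ckb and Atp1b2 went the other way between these replicates.

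Slc6a8, the creatine transporter, was at 9.93, 6.28 and 6.49 FPKM in the OPC replicates and at 34.8 and 26.1 FPKM in the OL replicates. The groups did not overlap, as for 28.0% of transcripts in this direction, and the difference was 1.89 ± 0.27 (log2 of FPKM + 1, SE; adjusted p = 0.00195 by limma), where 13.8% of transcripts were called higher. The related kinase genes Ckm and Ckmt2 were not analysed here.

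**Figure D1:**
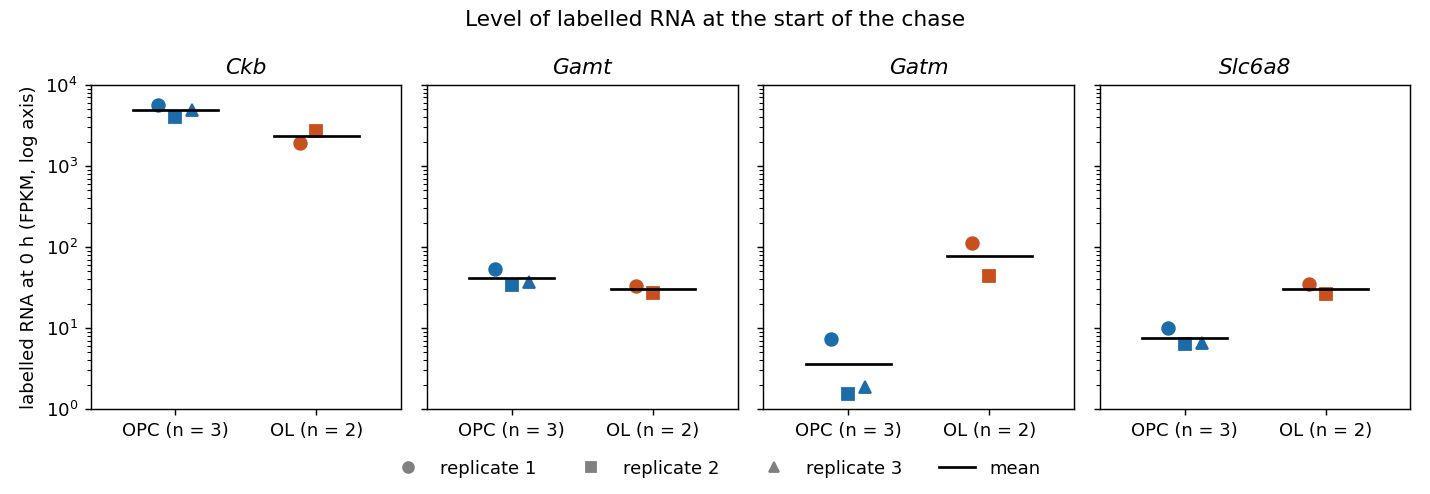
Labelled RNA at 0 h of chase in FPKM on a log axis for Ckb, Gamt, Gatm and Slc6a8, with 1 point per replicate (OPC, n = 3; OL, n = 2) and a line at the group mean. Ckb lies near the top in both cell types, the Gamt points of both cell types lie close together, and the Gatm and Slc6a8 points of OLs lie above all those of OPCs.

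The genes that feed and use the creatine pathway were compared in the same fit, as lists of genes around the 4 enzymes. Over all transcripts, 13.8% were called higher and 15.8% lower in OLs. Of 12 tested genes listed around arginine and glycine supply, 0 were called higher and 5 lower. Their median change was -0.73 (log2) against -0.01 over all transcripts. This list includes Gldc, of glycine cleavage, and Odc1, of polyamine synthesis, which are not steps of supply and are among the genes called lower. Of 8 genes of the methyl donor cycle, 0 were called higher and 2 lower, with a median of -0.24. Of 4 genes that act beside the mitochondrial kinase, 0 were called higher and 2 lower (median -0.57). Of 4 adenylate kinases, which also pass phosphate between adenine nucleotides, none was called in either direction (median -0.47). Of 7 ATP-using ion pump genes, 3 were called higher and 0 lower (median 0.74).

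Among the genes of glycine metabolism was Shmt1, the cytosolic serine hydroxymethyltransferase that makes glycine from serine. Shmt1 had 0 h levels of 25.4, 31.9 and 24.2 FPKM in OPCs and 2.05 and 1.80 FPKM in OLs (change -3.26 ± 0.22 log2, adjusted p = 0.000132 by limma). Shmt2, its mitochondrial counterpart, was at 109, 66.5 and 99.7 FPKM in OPCs and at 20.4 and 23.8 FPKM in OLs (-1.98 ± 0.27, adjusted p = 0.00158 by limma). Gldc, a subunit of the glycine cleavage system, was at 35.5 to 47.7 FPKM in OPCs and at 8.43 and 16.7 FPKM in OLs (-1.68 ± 0.30, adjusted p = 0.0059 by limma). All 3 were lower in both OL replicates than in any OPC replicate, as were 31.4% of transcripts, and the call for Gldc was narrowly lost without OL replicate 1 (-1.23, adjusted p = 0.052).

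On the arginine side, Slc7a1, a transporter of cationic amino acids, was at 31.8 to 33.3 FPKM in OPCs and at 11.5 and 12.2 FPKM in OLs (-1.40 ± 0.20, adjusted p = 0.00216 by limma). Odc1, the ornithine decarboxylase that starts polyamine synthesis, was at 91.7 to 136.6 FPKM in OPCs and at 46.5 and 56.5 FPKM in OLs (-1.10 ± 0.25, adjusted p = 0.0138 by limma). The call for Odc1 was lost without OPC replicate 3 (adjusted p = 0.0543), without OL replicate 1 (0.109) and without OL replicate 2 (0.0539).

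In the methyl donor cycle, Ahcy, which removes the S-adenosylhomocysteine that methyltransferases such as Gamt release, was at 58.4, 36.5 and 43.5 FPKM in OPCs and at 11.4 and 12.2 FPKM in OLs (-1.86 ± 0.25, adjusted p = 0.00163 by limma). The other gene called in this list was Mtrr, the reductase that keeps methionine synthase active, which was named after its values were seen (-1.03 ± 0.26, adjusted p = 0.0201 by limma). Mat2a, which makes S-adenosylmethionine, was at 105.5 to 133.2 FPKM in OPCs and at 87.9 and 104.2 FPKM in OLs, and did not pass the test.

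Among the genes at the mitochondrial membrane, Slc25a5, an ADP/ATP carrier, was at 936.3, 629.6 and 720.6 FPKM in OPCs and at 320.3 and 331.9 FPKM in OLs (-1.20 ± 0.24, adjusted p = 0.00887 by limma). Its call was lost without OL replicate 1 (adjusted p = 0.0709) and without OL replicate 2 (0.0556). Slc25a4, another ADP/ATP carrier, was at 150.1 to 244.9 FPKM in OPCs and at 216.3 and 172.3 FPKM in OLs, with overlapping groups. Vdac3, a channel of the outer membrane that was also named after its values were seen, was lower in OLs (-0.72 ± 0.21, adjusted p = 0.0367 by limma).

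The ion pump genes that were called were higher in OLs. Atp1b1, a beta subunit of the sodium pump, was at 4.48, 2.41 and 1.299 FPKM in OPCs and at 7.65 and 14.3 FPKM in OLs (1.72 ± 0.40, adjusted p = 0.0152 by limma), and the call was lost without OL replicate 2 (1.31, adjusted p = 0.126). Atp1b2, another beta subunit, was at 52.1 to 96.4 FPKM in OPCs and at 128.6 and 308.4 FPKM in OLs (1.35 ± 0.41, adjusted p = 0.042 by limma). Without OL replicate 2 its difference fell to 0.72 (adjusted p = 0.28), and the call was also lost without OPC replicate 2 (0.0801), without OPC replicate 3 (0.0718) and with a pseudocount of 0.1 (0.0559). Atp2a2, a calcium pump of the endoplasmic reticulum named after its values were seen, was at 54.6 to 59.4 FPKM in OPCs and at 91.5 and 100.4 FPKM in OLs (0.74 ± 0.21, adjusted p = 0.03 by limma). The summed astrocyte markers, like Atp1b1 and Atp1b2, were higher in OL replicate 2 than in OL replicate 1 (448.3 against 221.5 FPKM). Of 3 tested astrocyte markers, 1 was called higher and 0 lower in OLs, where 13.8% of transcripts were called higher. The part of astrocyte-like cells in the pump levels was not tested.

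**Figure D2:**
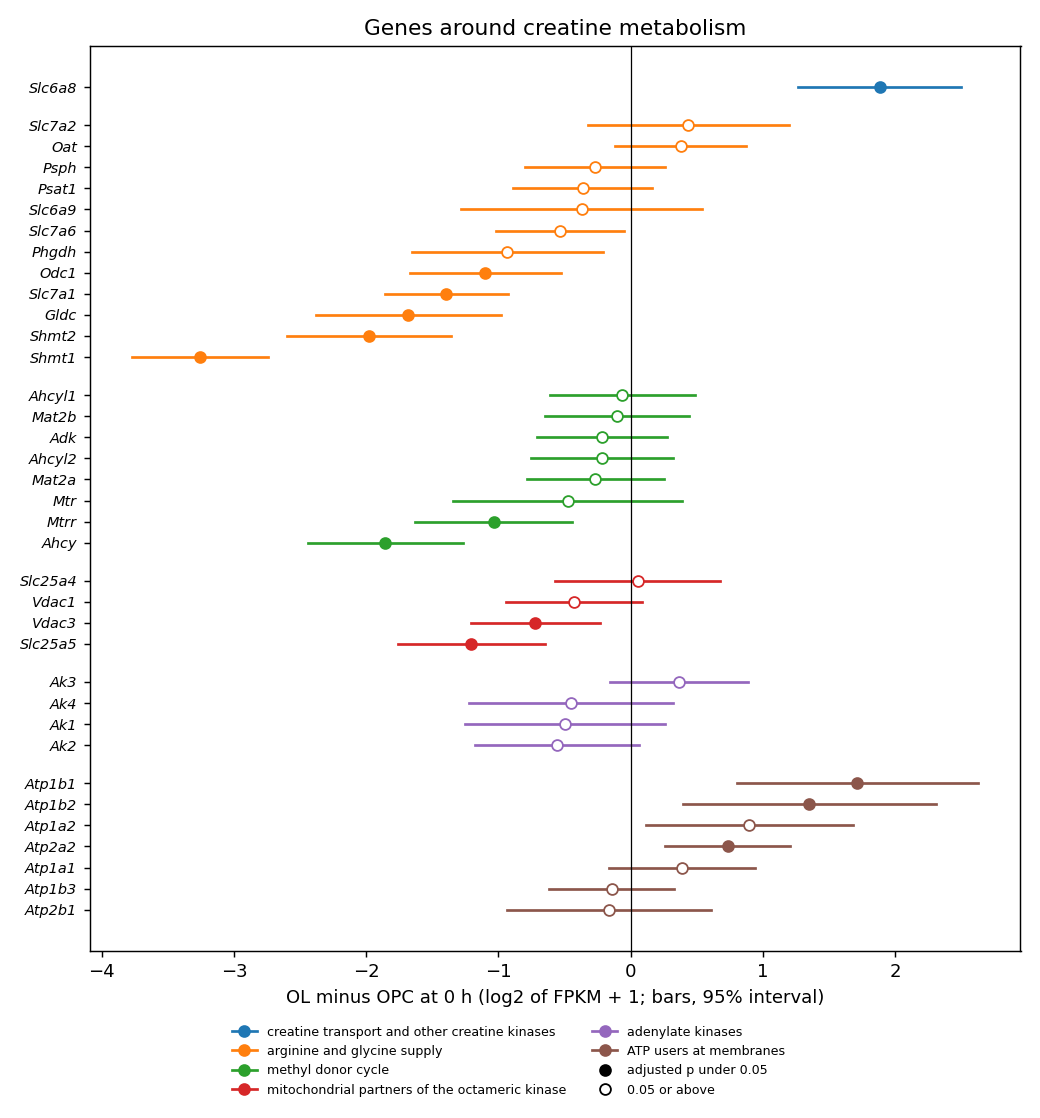
Difference between cell types in the 0 h level (OL minus OPC, log2 of FPKM + 1) for each tested gene of the lists around creatine metabolism, with 95% intervals from limma and filled points for an adjusted p under 0.05 over all transcripts. Slc6a8 and 3 ion pump genes lie to the right of 0. The called genes listed around arginine and glycine supply, of the methyl donor cycle and of the mitochondrial partners lie to the left.

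Over the chase, most labelled transcripts were lost and Ckb and Gamt were not. The median transcript was at 10.98% to 17.7% of its 0 h level after 6 h in OPCs and at 31.5% and 36.6% in OLs. Ckb and Gamt were at 76.5% or more of their 0 h level at 6 h in all 5 replicates, and Slc6a8 was at 22.2% to 57.7%. Gatm was the exception among the 3 enzymes, since it was kept in OLs and fell by 6 h in OPCs, where its level was low throughout. In OPCs it ended at 0% and 7.96% in a pair of replicates and at 34.0%, above the library median of 14.4%, in the other. At 6 h, 15.7%, 21.6% and 16.4% of all OPC transcripts were at 0 in replicates 1, 2 and 3. The slope of Gatm over the chase (log2 of FPKM + 1) was above the library median in all 3 OPC replicates. It was -0.22, -0.23 and -0.10 per hour, against medians of -0.32, -0.46 and -0.33. With a pseudocount of 0.1 it was -0.40 per hour, against a median of -0.52 over all transcripts.

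Ckb was at 86.9%, 142.5% and 125.6% of its 0 h level at 6 h in the OPC replicates and at 125.7% and 80.3% in the OL replicates. The groups overlapped. At 1 h Ckb was lower than at 0 h in 4 of 5 replicates, with 64.0%, 109.3% and 70.3% in OPCs and 62.1% and 85.9% in OLs, close to the library medians of 64.0% to 95.6%. At 6 h, 92.0% to 94.2% of OPC transcripts and 83.1% and 94.1% of OL transcripts had kept less than Ckb.

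The slope of log2(FPKM + 1) over the chase was 0.07 ± 0.04 per hour for Ckb in OPCs (SE; 95% interval -0.01 to 0.15, adjusted p = 0.106 by limma) and 0.05 ± 0.05 per hour in OLs (-0.06 to 0.17, adjusted p = 0.384). Of all transcripts, 81.7% were called falling and 4.31% rising in OPCs, and 68.4% were called falling and 1.5% rising in OLs. On the spike-in scale neither a fall nor a rise of Ckb was called in either cell type. When each library was instead scaled to the same median, so that slopes are relative to the typical transcript, Ckb rose by 0.58 per hour in OPCs (adjusted p = 1.08e-07 by limma) and by 0.31 per hour in OLs (adjusted p = 0.000188).

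The share of Ckb in the labelled RNA grew over the chase. From 0 h to 6 h the summed FPKM fell in every replicate, and Ckb itself rose in OPC replicates 2 and 3 and in OL replicate 1. Of the summed FPKM of the listed transcripts, Ckb held 1.33%, 1.03% and 1.20% at 0 h in OPC replicates 1, 2 and 3 and 1.87%, 2.17% and 2.32% at 6 h. In OLs it held 0.553% and 0.784% at 0 h and 0.952% and 0.956% at 6 h. The share was higher at 6 h than at 0 h in 5 of 5 replicates, and a share does not depend on the spike-in scale. Retention differed among its neighbours in abundance. Actb kept 115% to 196% of its 0 h level in OPCs, and Hist1h4d, with a 0 h level near that of Actb, kept 10.6% to 19.7%.

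**Figure D3:**
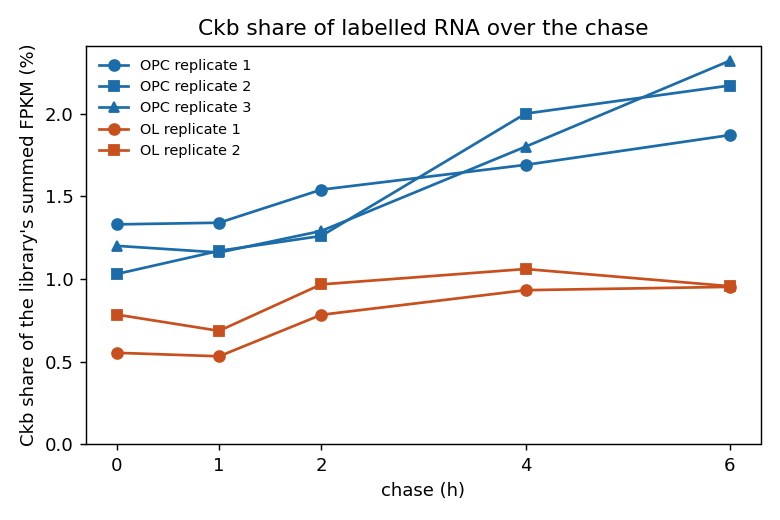
Share of Ckb in the summed FPKM of all listed transcripts (percent) against hours of chase, with 1 line per replicate of OPCs and OLs. The OPC lines run from 1.03% to 1.33% at 0 h up to 1.87% to 2.32% at 6 h, and the OL lines lie below them throughout.

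Gamt was at 90.8%, 104.3% and 117.8% of its 0 h level at 6 h in the OPC replicates and at 170.4% and 76.5% in the OL replicates. The OL replicates lay on either side of the OPC replicates, so no difference between cell types was resolved. Its lowest values came earlier in the chase, at 39.4% (1 h, OPC replicate 1) and 52.4% (2 h, OPC replicate 3). The slope was 0.06 ± 0.05 per hour in OPCs (log2, SE; adjusted p = 0.26 by limma) and 0.07 ± 0.05 per hour in OLs (adjusted p = 0.289). OL replicate 1 alone gave 0.18 per hour and OL replicate 2 alone gave -0.05 per hour. Ckb differed between these replicates in the same direction, with 0.13 and -0.02 per hour. With each library scaled to the same median, Gamt was called rising relative to the typical transcript in both cell types. Its slope was then 0.57 per hour in OPCs (adjusted p = 2.19e-06 by limma) and 0.32 per hour in OLs (0.000392).

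Gatm was at 34.0% and 7.96% of its 0 h level at 6 h in OPC replicates 1 and 3 and was listed at 0 in OPC replicate 2, whereas it was at 145.5% and 127.6% in the OL replicates. The groups did not overlap, which was true in this direction of 48.9% of transcripts. In FPKM, Gatm in OPCs went from 7.43, 1.54 and 1.90 at 0 h to 5.79, 1.68 and 3.06 at 4 h and to 2.52, 0 and 0.15 at 6 h. At 1 and 2 h the OPC replicates were at 8.27 and 8.53, at 2.04 and 3.55 and at 0.63 and 1.47 FPKM, so the levels moved up and down before 4 h, and all 3 were lower at 6 h than at 4 h. In OLs, Gatm went from 111.8 and 43.3 FPKM at 0 h to 131 and 53.8 FPKM at 4 h and to 162.7 and 55.3 FPKM at 6 h.

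The slope of Gatm was -0.18 ± 0.06 per hour in OPCs (log2 of FPKM + 1, SE; adjusted p = 0.0133 by limma) and 0.10 ± 0.05 per hour in OLs (adjusted p = 0.0621). The difference of the slopes was 0.29 ± 0.09 per hour (95% interval 0.11 to 0.47; adjusted p = 0.0163 by limma), in a comparison in which 32.5% of transcripts were called. The change from 0 h to 6 h differed by 1.75 ± 0.42 between the cell types (log2, adjusted p = 0.0196 by limma), with 17.8% of transcripts called. This call was lost with a pseudocount of 0.1 (adjusted p = 0.0825), with each library scaled to the same median (0.147), with 4 h in place of 6 h (0.788, with a difference of 0.18) and without OL replicate 1 (0.116) or OL replicate 2 (0.117). The size of the slopes depended on the pseudocount, and with 0.1 the slope in OPCs was -0.40 and the difference of the slopes 0.50 per hour. With each library scaled to the same median the slope in OPCs turned to 0.065 per hour (adjusted p = 0.557) and the difference of the slopes was 0.29 per hour but not called (adjusted p = 0.0752). Without the 6 h libraries the fall of Gatm in OPCs was no longer seen (0.04 per hour, adjusted p = 0.653) and the difference of the slopes was 0.04 per hour (adjusted p = 0.848). Without OL replicate 1 or OL replicate 2 the difference of the slopes also lost its call (0.24 and 0.33 per hour, adjusted p = 0.173 and 0.0711), as it did without the replicate block (0.148). The fall in OPCs lost its call without OPC replicate 1 (adjusted p = 0.0958), OPC replicate 2 (0.0585) or the replicate block (0.0971).

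For Ckb and Gamt the slopes of the 2 cell types differed by -0.02 per hour (95% interval -0.15 to 0.11, adjusted p = 0.873 by limma) and by 0.00 per hour (-0.16 to 0.17, adjusted p = 0.981). The median difference over all transcripts was 0.14 per hour, since the typical transcript fell more slowly in OLs, and 13.7% and 17.6% of transcripts lay below Ckb and Gamt. The interval of Gamt took in this median, and that of Ckb ended below it. With each library scaled to the same median both differences were negative and called. They were -0.28 for Ckb (adjusted p = 0.00489 by limma) and -0.26 for Gamt (adjusted p = 0.0378), the latter with the direction turned. This scaling removes a median decline that was steeper in OPCs (-0.38 per hour) than in OLs (-0.20). A transcript that is flat in both cell types then comes out negative, so these calls restate the library medians.

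Slc6a8 fell in both cell types, by 0.17 per hour in OPCs (SE 0.05, adjusted p = 0.00367 by limma) and by 0.11 per hour in OLs (SE 0.05, adjusted p = 0.0418). The difference of these slopes was 0.06 ± 0.07 per hour (adjusted p = 0.551 by limma). Its level at 6 h was 22.2%, 30.0% and 47.0% of that at 0 h in OPCs and 57.7% and 49.4% in OLs, and both OL values were above all 3 OPC values, by a narrow margin, as for 48.9% of transcripts. With each library scaled to the same median the direction turned, to 0.26 and 0.14 per hour, so Slc6a8 fell on the spike-in scale but less than the typical transcript. The call in OLs was also lost without OL replicate 1 (adjusted p = 0.064) or OL replicate 2 (0.374), without the replicate block (0.0933), with 1 slope fitted per replicate (0.101) and without the 6 h libraries (0.875, direction turned), and the call in OPCs was lost without the 6 h libraries (0.261).

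**Figure D4:**
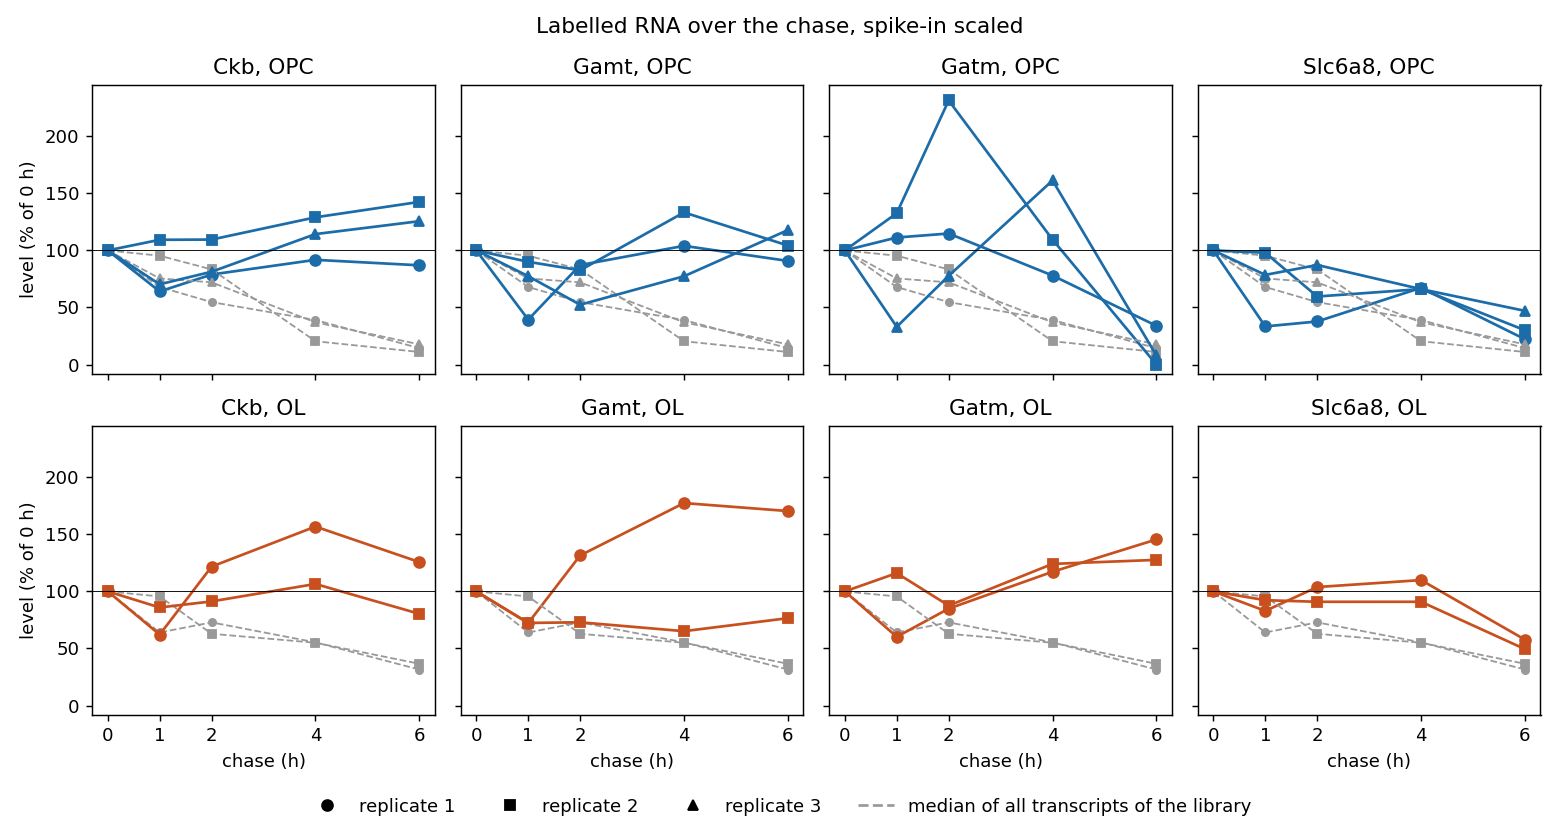
Level of Ckb, Gamt, Gatm and Slc6a8 over the chase as a percentage of 0 h in each replicate of OPCs (upper row) and OLs (lower row), with the median of all transcripts of each library as grey dashed lines. Ckb and Gamt stay well above the medians at 6 h in all replicates, Gatm drops to 0% to 34.0% at 6 h in OPCs and ends at 127.6% and 145.5% in OLs, and Slc6a8 lies between.

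The half-lives, which the authors capped at about 6 h, hardly separated the 3 enzymes. Ckb and Gamt were at the ceiling in all 5 replicates, as were 24.3% to 31.1% of OPC transcripts and 36.1% and 39.7% of OL transcripts, so a comparison of their half-lives between cell types has no content. Gatm was at the ceiling in 4 replicates and at 5.51 h in OPC replicate 3, and its difference of 0.04 ± 0.05 (log2 h, SE) had an adjusted p of 0.724 by limma, where 3.54% of transcripts were called. Slc6a8 had half-lives of 2.76, 3.46 and 6 h in OPCs and was at the ceiling in both OL replicates (0.64 ± 0.40, adjusted p = 0.476 by limma). Of the 36 tested genes of the 6 lists around the pathway, 0 were called by limma, and 2 had an unadjusted p under 0.05, against 23% of all transcripts.

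For Gatm in OPCs the half-life and the 6 h level go apart. Its half-life was at or near the ceiling in all 3 OPC replicates, while its level at 6 h was 0% to 34.0% of that at 0 h. A fit by least absolute deviations follows the majority of the points, and a refit here gave 6, 6 and 5.51 h. The levels at issue are below 10 FPKM, and their precision is unknown without read counts.

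The level of each gene over all 25 libraries was compared with those of 7561 transcripts with a mean 0 h level of at least 5 FPKM, by Pearson's correlation of log2(FPKM + 1). Libraries of a replicate share their cells, and all transcripts of a library share its scale, so these values are descriptions. Ckb was most like Slc25a39, a mitochondrial carrier (r = 0.976), Slc25a5 (0.968) and Metrn, which encodes a secreted glial factor (0.966). Gatm was most like the taurine transporter gene Slc6a6 (0.967), the collagen gene Col9a3 (0.966) and the plexin gene Plxnb3 (0.966). Gamt had lower values, with Fkbp1a (0.819), Ap2s1 (0.818) and Aldoart2 (0.816) first. Among the enzymes themselves, r was 0.417 for Ckb and Gamt, -0.818 for Ckb and Gatm and -0.09 for Gamt and Gatm, so the transcripts of the pathway did not move as a unit over these libraries.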

How the data were processed

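Labelled RNA from 15 OPC and 10 OL libraries was analysed, and an OPC control without biotin was not analysed here. The authors clipped adapters, aligned reads to GRCm38 with HISAT2 2.1.0 and obtained FPKM with StringTie 1.3.5 (versions from the submitters' processing notes) over canonical coding transcripts. In the deposited tables FPKM had been rescaled to labelled spike-in reads, with 1 factor per library, so an error in it moves every transcript of that library. They left out transcripts under 1 FPKM at 0 h or without signal at 1 and 2 h, and no listed transcript is at 0 at those times. Half-lives in h were fitted by the authors per replicate by least absolute deviations and capped by them, and the capped values, listed marginally over 6 h, were set here to exactly 6 h.

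Tests used limma 3.58.1 in R 4.3.3 on log2(FPKM + 1) or log2 half-life, with Benjamini-Hochberg adjustment over all transcripts tested and a threshold of 0.05. Levels at 0 h, half-lives and the change from 0 h to 6 h were compared over 3 OPC against 2 OL replicates with no covariate. Slopes over the chase kept an intercept for each replicate. No exact permutation test of 3 against 2 can give a p below 0.1. The samples labelled as replicates were counted as separate, since at most 0.0117% of values were identical between them. For 0 h levels, half-lives and the change to 6 h, p-values measure the spread between these samples. For slopes they measure the scatter of libraries around a common slope within replicates. The libraries of a replicate, which share their cells, were thus counted as separate in the slope fits. Codons and coordinates were read from GENCODE M21 (GRCm38), in which all 10104 transcripts were found by identifier and 10089 had a usable coding sequence. The fits were tested on simulated data.

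Genes named with values were the 3 listed enzymes, Slc6a8, up to 10 called genes of the lists by size of change, the neighbours of Ckb in abundance and the 3 transcripts most like each enzyme. Mat2a, Slc25a4, Mtrr, Vdac3, Atp2a2 and the cell type markers Mbp, Gpr17 and Pdgfra were named in addition, after their values were seen. Results for 1 OPC marker are not reported here. The members and lists were chosen with earlier results of these data known. Alternatives were another pseudocount, a low-value filter at 5 FPKM, scaling each library to its median, the replicate block, refitted or centred half-lives, 1 slope per replicate, time points left out and each replicate left out. Leaving out the 1 h libraries was chosen after seeing the data.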

Additional observations from a re-analysis of the deposited data

Results flagged for a closer look

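The slope of Gatm over the chase differed between the cell types by 0.2876 per hour (OL minus OPC, log2 of FPKM + 1; adjusted p = 0.0163 by limma for the difference itself, and 0.0752 with each library scaled to the same median). The slope was -0.22, -0.23 and -0.10 per hour in OPC replicates 1, 2 and 3. It was 0.15 and 0.06 per hour in OL replicates 1 and 2, thus negative in 3 of 3 and positive in 2 of 2 replicates. How many transcripts split in this way by slope was not counted. Over all transcripts the median difference of slopes was 0.14 per hour, and 80.8% lay below Gatm. For the share kept at 6 h, 48.9% of transcripts had both OL replicates above all 3 OPC replicates. Without the 6 h libraries the difference was 0.04 per hour (adjusted p = 0.848 by limma), and without the replicate block it was not called (0.148). Leaving out OL replicate 1 or OL replicate 2 gave 0.24 and 0.33 per hour. Gatm lay at 7.43 FPKM or less at 0 h in OPCs and at 43.3 FPKM or more in OLs. Whether the low OPC level has a part in the difference was not tested.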

How the results depend on the processing

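The higher 0 h levels of Gatm and Slc6a8 in OLs and the unchanged side of the threshold for Gamt held under all 9 alternatives. Counts of called transcripts moved with the setting. For half-lives, 287 transcripts were called, and 0 with the replicate block (limma; 1554 at an unadjusted p under 0.05), 1 with each replicate centred on its median (3205 at an unadjusted p under 0.05), 13 after a refit without the 6 h libraries and 600 for half-life in h. For the difference of slopes, 2655 were called, 1622 without the 6 h libraries and 1496 without the 1 h libraries. For the change from 0 h to 6 h, 1457 were called, 430 with a pseudocount of 0.1 and 44 with each library scaled to the same median. With a replicate left out, the counts ran from 896 to 2605 for the 0 h level (2421), from 167 to 236 for half-lives, from 746 to 2722 for the difference of slopes and from 33 to 1544 for the change to 6 h. The lowest of these came without OL replicate 1, without OPC replicate 2, without OL replicate 1 and without OL replicate 2. The causes were not tested.

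Scaling each library to the same median removes the common decline. It moved the median slope by 0.36 in OPCs and 0.21 in OLs and turned the split of calls to 2910 rising and 2163 falling in OPCs, to 2993 and 1985 in OLs, and to 838 higher and 1959 lower for the difference of slopes. Under it the slope of Gatm in OPCs was 0.065, and those of Slc6a8 were 0.26 and 0.14 in OPCs and OLs. Those of Gamt were 0.57 and 0.32, both now called. The difference of slopes was -0.26 for Gamt (adjusted p = 0.0378 by limma) and -0.28 for Ckb (0.00489), both now called. It was -0.13 for Slc6a8 and 0.29 for Gatm (0.0752), which lost its call. The change to 6 h turned to -1.26 for Gamt and -0.49 for Slc6a8, and that of Gatm was 2.02 (adjusted p = 0.147). Half-lives centred on each replicate's median gave differences of -0.86 for Gatm and -0.26 for Slc6a8, and a refit after rescaling to the mean decay curve called 87 longer and 193 shorter half-lives, against 275 and 12.

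Without the 6 h libraries the slope was 0.042 for Gatm in OPCs and 0.015 for Slc6a8 in OLs, and the difference of slopes was 0.074 for Ckb. With 4 h in place of 6 h the difference kept was 0.22 for Ckb and 0.18 for Gatm (adjusted p = 0.788), and with a pseudocount of 0.1 it was 3.29 for Gatm (adjusted p = 0.0825). Over the replicates left out, the slope in OLs ran from -0.022 to 0.13 for Ckb and from -0.048 to 0.18 for Gamt, the difference of slopes from -0.090 to 0.060 for Ckb and from -0.11 to 0.12 for Gamt, and the change to 6 h from -0.53 to 0.12 for Ckb and from -0.42 to 0.70 for Gamt. That of Gatm ran from 1.66 to 1.85, and lost its call without either OL replicate (adjusted p = 0.116 and 0.117). The fall of Gatm in OPCs lost its call without OPC replicate 1 (adjusted p = 0.0958) and without OPC replicate 2 (0.0585). With the filter at 5 FPKM it could not be fitted.

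Whether replicate numbers pair the cell types was not settled. The deviations of same-numbered OPC and OL replicates had an r of 0.06 and 0.01 for the 0 h level and of 0.00 and -0.105 for half-lives, and the highest r of any OPC and OL replicate was 0.105 (OPC replicate 2 and OL replicate 1, half-lives). With 2 OL replicates their deviations mirror each other, so these values decide little. The study matches the OLs to a pair of OPC replicates but gives no numbers, so no pairing was used. With the replicate block, 1932 transcripts were called for the 0 h level and 1803 for the change to 6 h. Without the replicate block in the slopes, the difference for Gatm was 0.29 with an adjusted p of 0.148, and its fall in OPCs had an adjusted p of 0.0971. The number of reads per library is unknown, which limits what can be said of Gatm in OPCs.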
